A study of Mus musculus with 38 samples.

Results

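The neuronal immediate early genes described here are the 10 protein-coding genes *Fos*, *Fosb*, *Arc*, *Egr1*, *Egr2*, *Npas4*, *Nr4a1*, *Junb*, *Bdnf* and *Homer1*, out of 22367 protein-coding gene records on chromosomes 1 to 19, X and Y of the GENCODE vM1 annotation. They were listed by name with earlier results of these data known, and the rule itself uses no value of the peak lists. For each gene, the peaks that shared at least 1 bp with the gene or with the 100 kb on either side of it were collected from 11 lists of called peaks. This span is called the window of the gene, and no window overlapped another.

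The study mapped where the nuclear protein SATB1 contacts DNA in mouse tissues. In urea ChIP-seq, formaldehyde-crosslinked chromatin is spun through urea before immunoprecipitation, which leaves proteins that are crosslinked directly to DNA. SATB1 urea ChIP-seq was available for brain, thymocytes and skin, with 2 lists each, all from wild-type (Satb1+/+) C57BL/6 mice and all with the antibody 1583D made by the authors. Standard ChIP-seq for SATB1 in thymocytes had 2 lists (antibody ab109122 in replicate 1, 1583D in replicate 2), CTCF urea ChIP-seq had 1 list in thymocytes and 1 in skin, and the reference map of base-unpairing regions (BURs) had 1 list, from recombinant His-tagged SATB1 bound in vitro to purified, sonicated thymocyte DNA of the same strain.

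The brain samples were suspensions of cortex cells, in which, according to the protocol, neurons alone express SATB1. Their age labels give 5 weeks for replicate 1 and 6 weeks for replicate 2, while their protocol gives postnatal day 13. The skin samples were primary epidermal keratinocytes, labelled day 13 but described in the protocol as day 5. The published methods differ again, with adult mice for cortex and newborn mice for skin. Thymocytes were labelled day 13, although the titles of standard replicate 1 and of the thymocyte CTCF sample say 6 weeks. Age therefore cannot be told apart from tissue, and no list records the activity of the neurons or the expression of any gene, so tissue labels could not be checked against markers.

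Immediate early genes are induced by synaptic activity through transcription factors already present in the neuron, without new protein synthesis. *Fos*, *Fosb* and *Junb* encode subunits of the AP-1 transcription factor, *Egr1* and *Egr2* encode zinc finger factors, *Npas4* encodes a factor of the bHLH-PAS family and *Nr4a1* an orphan nuclear receptor. *Arc*, *Bdnf* and *Homer1* act at the synapse. Arc promotes the internalization of AMPA receptors, BDNF is a secreted ligand of the receptor TrkB, and Homer1 binds metabotropic glutamate receptors. BURs are AT-rich stretches that readily lose base pairing under superhelical strain and often hold long runs in which 1 strand lacks G or lacks C.

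The 6 urea SATB1 lists differed widely in size. Brain had 117963 and 109154 peaks, thymocytes 45049 and 38882, and skin 11210 and 10846. The BUR map held 238380 BURs. Between replicates, 73.3% to 84.9% of the urea peaks of 1 list overlapped a peak of the other. Between the standard lists, 84.3% of replicate 2 overlapped replicate 1, and 45.3% of replicate 1 overlapped replicate 2. The published text calls the aligned read totals of the urea samples similar, but no total per sample is in the sources used here. The titles place both brain samples in 1 experiment, with 10 and 12 cycles, and both thymocyte urea samples in 1 experiment, with 4 and 2 µl.

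The windows of the immediate early genes held few SATB1 sites in skin, some in thymocytes and the most in brain. The 10 windows together held 39 and 40 urea SATB1 peaks in the brain lists, 13 in each thymocyte list, and 3 and 2 in the skin lists. *Bdnf* and *Homer1* accounted for 29 of the brain peaks in each list. Of the 86 BURs in the windows, brain bound 28 (32.6%) in replicate 1 and 23 (26.7%) in replicate 2, a mean of 29.7% ± 4.11 (SD, n = 2). Thymocytes bound 4 (4.65%) and 6 (6.98%), with a mean of 5.81% ± 1.64 (SD, n = 2). Each skin list bound the same number, 2 (2.33%). A BUR is called bound where it overlaps a peak by at least 1 bp.

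The order skin, thymocytes, brain held for both measures without overlap between the tissues. With the Jonckheere-Terpstra statistic, exact permutation (one-sided) of the tissue labels gave p = 0.0111 for the bound BUR share. The number of peaks gave the same exact permutation p = 0.0111, the smallest value that 90 arrangements of 6 lists allow. The order tested was that of the whole lists and was known beforehand, so these p-values show nothing particular to the windows. Brain exceeded thymocytes by 23.8 percentage points of the BURs. Against the 4 thymocyte and skin lists as 1 group, the difference was 25.6 percentage points, with an exact two-sided permutation p = 0.0667, the smallest that 15 arrangements allow.

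This order was also that of the list sizes, and it was not seen in lists of equal size. Each list was reduced to its 10846 peaks of highest −log10 q. Of the 86 BURs, brain then bound 3 and 1 (3.49% and 1.16%), thymocytes 2 and 3 (2.33% and 3.49%), and both skin lists 2 (2.33%). Exact permutation gave p = 0.433. With so few bound BURs per list, this comparison cannot decide whether an order of the tissues remained. Per 10000 peaks of a list, the windows held 3.31 and 3.66 peaks in brain, 2.89 and 3.34 in thymocytes, and 2.68 and 1.84 in skin. Thymocyte replicate 2 lay between the brain values, and the exact two-sided permutation p was 0.0667. Without *Bdnf* and *Homer1*, these numbers were 0.848 and 1.01 in brain, 1.33 and 1.29 in thymocytes, and 0.892 and 0 in skin, so that brain was below thymocytes.

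Over the whole BUR map, brain bound 34.8% ± 2.03 (SD, n = 2), thymocytes 13.4% ± 1.16 (SD, n = 2) and skin 3.64% ± 0.0504 (SD, n = 2). The brain share in the member windows was 5.10 times the thymocyte share, against 2.59 times over the whole map. This contrast was not tested, and the thymocyte share in the windows rests on the 4 and 6 bound BURs. In *Bdnf* and *Homer1* brain bound 41.7% ± 5.89 (SD, n = 2) of 48 BURs, and in the other 8 members 14.5% ± 1.86 (SD, n = 2) of 38 BURs. Thymocytes bound 8.33% ± 2.95 (SD, n = 2) of the 48 BURs and, in each list, 1 of the 38 (2.63%). Skin bound none of the 38.

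**Figure D1:**
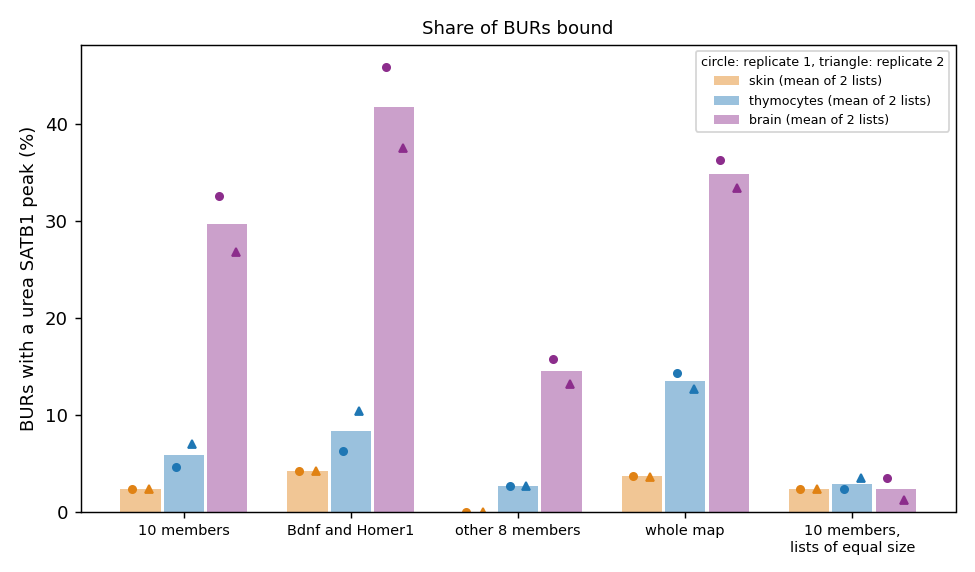
Share of BURs (%, vertical axis) that overlapped a urea SATB1 peak in skin, thymocytes and brain, for the 10 members, for *Bdnf* and *Homer1*, for the other 8 members, for the whole map, and for the 10 members with lists of equal size. Bars are means of 2 lists, circles replicate 1 and triangles replicate 2. Brain was highest in the first 4 sets, at 29.7% in the 10 members, while with lists of equal size its values of 3.49% and 1.16% lay on either side of the skin values.

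By member, 5 of 10 had more bound BURs in both brain lists than in any thymocyte or skin list (*Arc*, *Egr2*, *Nr4a1*, *Bdnf* and *Homer1*), against 57.7% of all 22367 genes. The same 5 genes had more peaks in both brain lists, against 67% of all genes. The share of members, 50%, was under both backgrounds. Both brain lists and no thymocyte or skin list had a peak in 3 windows, those of *Arc*, *Egr2* and *Nr4a1*, against 5.61% of all genes. The windows of *Fosb* and *Npas4* held no brain peak, which was so for 7.39% of all genes. No thymocyte peak lay in 4 windows, against 15.9%, and no skin peak in 8 windows, against 45%.

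**Figure D2:**
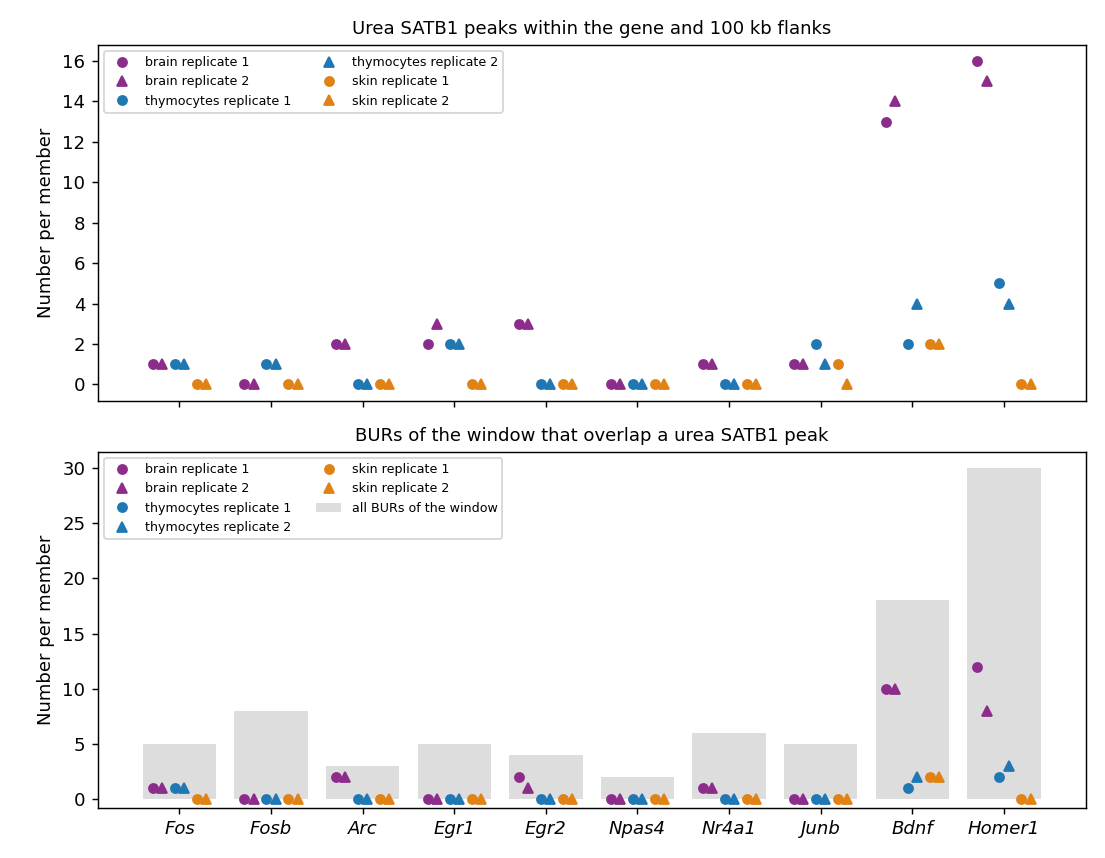
Number of urea SATB1 peaks in the window of each member (upper panel) and number of its BURs that overlapped such a peak (lower panel), for the 6 lists. Circles are replicate 1, triangles replicate 2, and grey bars all BURs of the window. *Homer1* (16 and 15 peaks in brain) and *Bdnf* (13 and 14) stand above the other members, which had at most 3.

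The members fell into 2 kinds of surroundings. *Fos*, *Fosb*, *Arc*, *Egr1*, *Egr2*, *Npas4*, *Nr4a1* and *Junb* are short, from 1807 bp for *Junb* to 7947 bp for *Nr4a1*, and their windows held 2 to 8 BURs, or 0.973 to 3.86 per 100 kb. *Bdnf* (52348 bp) and *Homer1* (101206 bp) held 18 and 30 BURs, or 7.13 and 9.96 per 100 kb. The median over all genes was 4.57 per 100 kb, so the BUR density of every one of the 8 short members was below it. The number of protein-coding genes touching the window, the member included, was 1 at *Bdnf* and 2 at *Homer1* and *Fos*, and reached 12 at *Fosb* and *Arc*, 13 at *Npas4* and 17 at *Junb*, with a median of 5 over all genes. *Fos* thus had few neighbours and few BURs (5).

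Merging the urea SATB1 peaks of the 6 lists gave 53 sites in the windows. Of these, 31 were present in both brain lists, and 20 of the 31 in no thymocyte or skin list. Another 11 were also in at least 1 thymocyte list, 8 of them in both. Only 3 sites had a skin peak, and all 3 were also in both brain lists. No site was found in skin without brain, and 5 were found in thymocytes without brain. Of the 31 sites, 22 lay on a BUR. By position, 31 of the 53 sites were intergenic, 12 lay in the member itself (*Bdnf* or *Homer1*) and 10 in another gene of the window.

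Sites shared with thymocytes were enriched more strongly in brain. The 11 shared sites had a median brain fold enrichment of 10.9, and the 20 others 6.24, where fold enrichment is the signal at the summit over the local background of the same sample. The whole lists showed the same pattern, with medians of 11.5 and 11.2 for brain peaks also in thymocytes and 6.71 and 6.55 for the rest. Among brain peaks found in both brain lists, 47.1% and 46.9% overlapped a thymocyte peak over the genome, against 11 of 31 sites here. Fold enrichment is not scaled between samples, so comparisons of its values between tissues at the single sites below are descriptions.

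**Figure D3:**
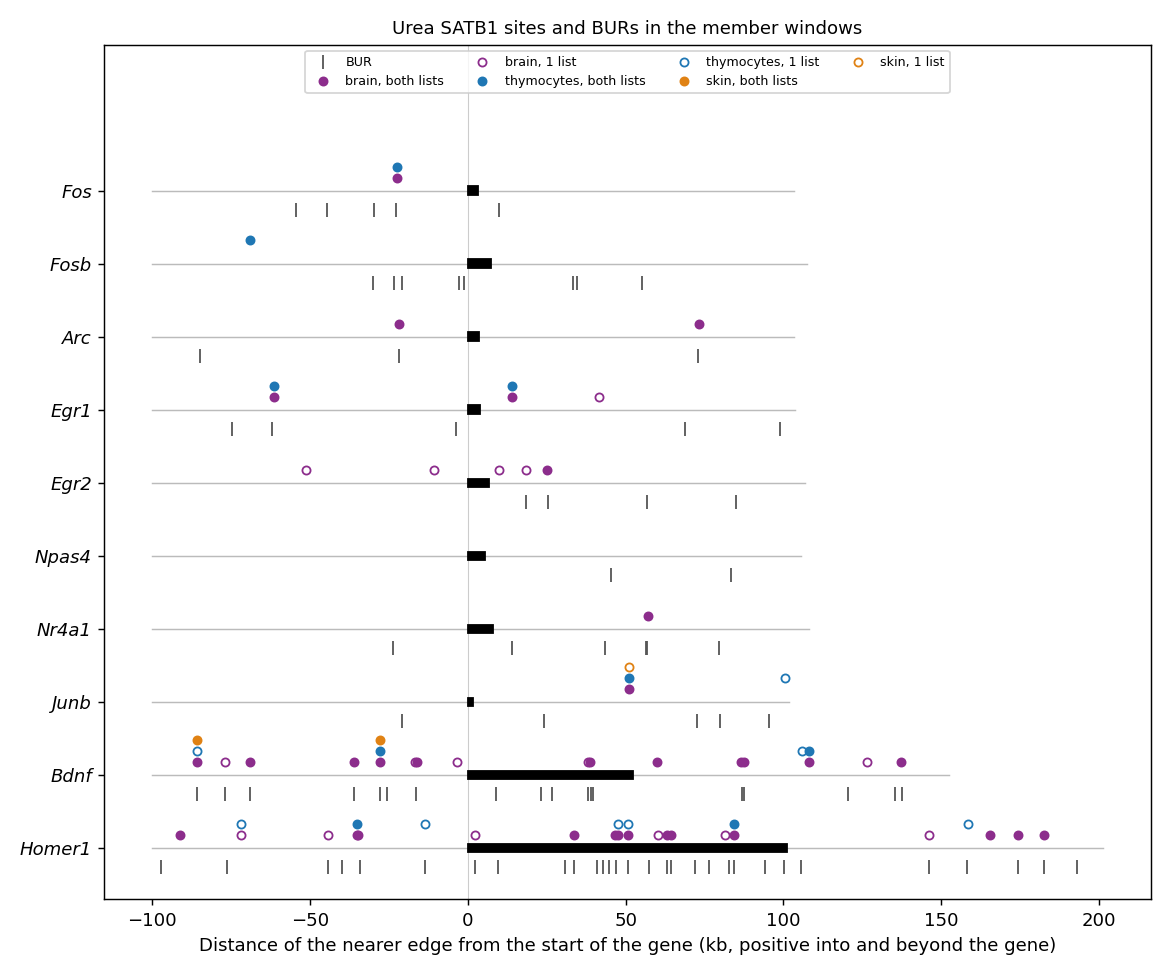
Position of urea SATB1 sites and BURs around each member, as the distance of the nearer edge from the start of the gene (kb, horizontal axis). Black bars are the genes, vertical ticks BURs, filled circles sites in both lists of a tissue and open circles sites in 1 list. No site lay at the start of any member, and brain sites crowd the windows of *Bdnf* and *Homer1*, with 11 and 12 in both lists.

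The sequences below show the BURs that the brain peaks overlapped: for each member that has one, the BUR nearest to its start that both brain lists bound, cut to 300 bases around the summit of the BUR. At *Nr4a1* this summit lies outside the brain peaks, which overlap another part of the same BUR, and no printed base is in them. The sequences are given on the forward strand of mm9 in lower case, and capitals mark the longest stretch in the printed part that lacks G or lacks C. In the nearest *Bdnf* BUR the capitals lie in no urea SATB1 peak. They fall between a site of brain replicate 2 alone and the site in both brain lists. The latter begins at 109498259, near the end of the printed bases. *Egr1*, *Fosb*, *Npas4* and *Junb* had no BUR bound in both brain lists. The last 2 sequences were added after the values were seen, and are the BUR at the *Bdnf* site present in all 6 lists and the *Junb* site, which lies on no BUR.
Fos, chr12:86791897-86792196: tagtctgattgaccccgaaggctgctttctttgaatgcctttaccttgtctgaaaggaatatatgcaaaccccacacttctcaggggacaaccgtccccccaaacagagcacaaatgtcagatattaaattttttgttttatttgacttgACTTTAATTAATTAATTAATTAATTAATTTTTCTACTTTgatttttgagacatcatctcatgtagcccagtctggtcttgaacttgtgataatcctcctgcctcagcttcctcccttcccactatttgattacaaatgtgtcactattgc
Arc, chr15:74524793-74525092: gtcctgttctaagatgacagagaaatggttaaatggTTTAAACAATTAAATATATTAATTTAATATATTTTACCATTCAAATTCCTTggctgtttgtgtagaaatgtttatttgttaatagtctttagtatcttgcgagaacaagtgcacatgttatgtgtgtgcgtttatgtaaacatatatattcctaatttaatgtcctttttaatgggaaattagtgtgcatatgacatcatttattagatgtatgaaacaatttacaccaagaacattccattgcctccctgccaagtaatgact
Egr2, chr10:67023599-67023877: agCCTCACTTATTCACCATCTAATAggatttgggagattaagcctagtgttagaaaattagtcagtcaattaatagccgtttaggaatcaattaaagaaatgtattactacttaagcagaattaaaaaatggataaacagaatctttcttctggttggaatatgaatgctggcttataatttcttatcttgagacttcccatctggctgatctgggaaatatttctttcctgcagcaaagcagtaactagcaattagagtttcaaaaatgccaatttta
Nr4a1, chr15:101154846-101155145: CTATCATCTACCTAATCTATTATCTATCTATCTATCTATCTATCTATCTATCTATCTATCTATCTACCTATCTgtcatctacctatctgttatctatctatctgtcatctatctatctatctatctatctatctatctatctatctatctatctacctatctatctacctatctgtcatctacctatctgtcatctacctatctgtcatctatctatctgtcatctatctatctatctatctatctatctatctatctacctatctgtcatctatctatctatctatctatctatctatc
Bdnf, chr2:109497970-109498269: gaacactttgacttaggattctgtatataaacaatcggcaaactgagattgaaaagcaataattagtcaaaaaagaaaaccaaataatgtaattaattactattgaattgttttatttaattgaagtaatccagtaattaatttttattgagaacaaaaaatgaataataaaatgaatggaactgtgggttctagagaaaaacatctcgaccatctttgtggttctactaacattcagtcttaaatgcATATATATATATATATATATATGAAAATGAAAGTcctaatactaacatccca
Homer1, chr13:94107603-94107902: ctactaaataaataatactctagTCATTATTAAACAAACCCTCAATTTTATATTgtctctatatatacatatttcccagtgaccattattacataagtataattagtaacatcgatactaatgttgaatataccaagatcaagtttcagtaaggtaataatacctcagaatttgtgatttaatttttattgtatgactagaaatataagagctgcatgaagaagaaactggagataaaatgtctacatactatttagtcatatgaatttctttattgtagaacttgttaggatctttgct
Bdnf in all 6 lists, chr2:109486618-109486917: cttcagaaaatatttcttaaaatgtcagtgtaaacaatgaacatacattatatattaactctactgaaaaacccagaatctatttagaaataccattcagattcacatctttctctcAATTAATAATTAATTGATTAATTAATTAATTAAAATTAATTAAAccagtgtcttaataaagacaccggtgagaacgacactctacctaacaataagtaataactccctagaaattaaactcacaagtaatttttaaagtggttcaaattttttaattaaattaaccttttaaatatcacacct
Junb off BURs, chr8:87451233-87451532: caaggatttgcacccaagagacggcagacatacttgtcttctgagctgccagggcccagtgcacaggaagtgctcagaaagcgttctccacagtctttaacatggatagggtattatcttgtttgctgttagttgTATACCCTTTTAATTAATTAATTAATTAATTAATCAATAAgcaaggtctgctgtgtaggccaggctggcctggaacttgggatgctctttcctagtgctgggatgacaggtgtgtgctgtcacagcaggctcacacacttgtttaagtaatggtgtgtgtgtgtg

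The marked stretch had 39 bases at *Fos*, 51 at *Arc*, 23 at *Egr2*, 73 at *Nr4a1*, 34 and 31 at the nearest *Bdnf* and *Homer1* BURs, and 44 at the *Bdnf* site of all 6 lists. It lacked C at both *Bdnf* BURs and G at the others. The AT content of the printed BURs ran from 62.3% at *Fos* to 75.3% at the *Bdnf* site of all 6 lists, while the printed *Junb* site had 54.7%. The *Nr4a1* stretch is a tetranucleotide repeat. Over all 86 BURs of the windows the median AT content was 67.4%, against 70.7% over the map. It was 69.1% in the 22 BURs bound in both brain lists and 65.0% in the 57 bound in neither. The median length of the longest stretch without G or without C was 40 bases in the bound and 51 in the unbound BURs, so it was not longer in those bound. Of the 22 bound BURs, 9 lay at *Bdnf* and 8 at *Homer1*. Bound and unbound BURs were thus spread differently over the windows, and neither contrast was tested.

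The capitals at *Fos*, at the *Bdnf* site of all 6 lists and at *Junb* share a tandem repeat of ATTA. This was seen in the printed sequences, and the 8-base word TTAATTAA, which is the same on both strands, was then counted within 300 bases around the summit of each site. It was present in 6 of the 11 sites in both brain lists and a thymocyte list, in 1 of the 20 in both brain lists and no thymocyte list, in 3 of 16 found in 1 brain list alone and in 1 of 5 found in thymocytes alone. Over whole lists it was present around 11.4% and 11.6% of brain summits, 16.0% and 17.8% of thymocyte summits and 24% and 24.5% of skin summits. It was present around 7.75% of BUR summits and in 1.37% of 300-base windows taken every 30 kb. Standard SATB1 and CTCF summits had it in 0.495% to 0.826%. The word was chosen after the sequences were seen, and no test was made. The *Fos*, *Junb* and *Bdnf* sites in which the repeat was seen are themselves among the 6 shared sites with the word. That count is therefore not independent of the choice of word.

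*Fos* (ENSMUSG00000021250.7, chr12:86814840-86818223, plus strand) had 1 site, 22.5 kb upstream in intergenic sequence. Its fold enrichment was 7.48 and 14.6 in the brain lists and 6.30 and 8.06 in the thymocyte lists, and neither skin list had a peak. The groups overlapped, with thymocyte replicate 2 above brain replicate 1. The BUR under it (chr12:86791859-86792235) was 1 of 5 in the window and had a fold enrichment of 6.47 in vitro. The 4 other BURs, one of them 9.92 kb from the start, were bound in no urea list.

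At *Fosb* (chr7:19888070-19895394, minus strand) and *Junb* (chr8:87500811-87502617, minus strand), the other AP-1 genes, no BUR was bound in any tissue. *Fosb* had 8 BURs, the nearest 1.08 kb upstream of its start with a fold enrichment of 11.1 in vitro. Its single site, 68.9 kb upstream and 405 bp from *Ppp1r13l*, was found in the thymocyte lists alone, at 4.57 and 9.10, and lay on no BUR. *Junb* had a site 50.9 kb downstream of its start, in an intron of *Mast1*. The values there were 8.63 and 10.2 in brain, 9.65 and 9.86 in thymocytes and 4.19 in skin replicate 1, with no peak in skin replicate 2. Brain and thymocyte values overlapped at this site, which carries the ATTA repeat and has no BUR in the in vitro map. Thymocyte replicate 1 had a further *Junb* peak in an intron of *Syce2*, 100.5 kb from the start, at 6.86.

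*Egr1* (chr18:35020861-35024638, plus strand) and *Egr2* (chr10:66998223-67004936, plus strand) differed from each other. *Egr1* had 2 sites shared by brain and thymocytes, none in skin, and no site on any of its 5 BURs. The nearer one, 14.2 kb downstream of the start in intergenic sequence (chr18:35035012-35035547), had 16.9 and 19.6 in brain and 8.35 and 6.5 in thymocytes, so both brain values were above both thymocyte values. The other, 61.4 kb upstream in introns of *Kdm3b* and *Gm17557*, had 7.48 and 11.0 in brain and 9.65 and 10.9 in thymocytes, which overlap. Brain replicate 2 alone had 1 further *Egr1* peak in an untranslated exon of *Etf1*, at 4.64. *Egr2* had peaks in brain alone. One site was in both lists, 25.2 kb downstream of the start, at 8.63 and 8.62 on a BUR with 3.85 in vitro. The 4 other *Egr2* sites were each in 1 brain list, with values from 3.76 to 5.75, and the nearest lay 9.82 kb from the start in an untranslated exon of *Ado*.

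*Npas4* (chr19:4984355-4989971, minus strand), the most neuron-restricted of these genes, had no urea SATB1 peak in its window in any list. Its nearest peaks were 110 kb away in thymocytes, 137 kb in brain, and 158 kb and 518 kb in the skin lists. Its window had 2 BURs, the nearest 45.5 kb from the start. *Nr4a1* (chr15:101097277-101105223, plus strand) had 1 site, 57.0 kb downstream of the start and 23.0 kb from *Krt80*, at 8.82 and 9.28 in brain and in neither thymocytes nor skin. It lay on a BUR of 1171 bp, in which 1 tetranucleotide is repeated, and it also overlapped a peak of both standard SATB1 lists and of 1 CTCF list. It was the only one of the 53 sites to overlap a CTCF peak, and the part of the repeat in these peaks was not tested.

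*Arc* (chr15:74499513-74503000, minus strand) had 2 sites, both in brain alone and both on BURs. The site 21.7 kb upstream of the start, 7.75 kb from *Jrk*, had 8.24 and 6.41, and the site 73.2 kb downstream had 7.48 and 5.08. Replicate 1 was the higher at both. The nearest thymocyte peaks to the *Arc* start were 195 kb and 136 kb away and the nearest skin peaks 216 kb and 257 kb, and the window held only 3 BURs.

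*Bdnf* (chr2:109514857-109567204, plus strand) had 17 sites, 11 of them in both brain lists and 9 of these on BURs. One of them was the single site of the 10 windows present in both lists of all 3 tissues. It lies 27.7 kb upstream of the start in intergenic sequence (chr2:109486414-109487142), with a fold enrichment of 26.1 and 24.6 in brain, 30.5 and 29.8 in thymocytes and 23.7 and 24.7 in skin. By −log10 q it ranked 788 and 855 in the brain lists, 331 and 416 in the thymocyte lists and 566 and 603 in the skin lists. As a share of each list, these ranks are 0.668% and 0.783% in brain, 0.735% and 1.07% in thymocytes, and 5.05% and 5.56% in skin. Its BUR (chr2:109486500-109487036) had 17.9 in vitro and lacked any standard SATB1 or CTCF peak. Fold enrichment is not scaled between samples, so the order of the tissues at this site is a description.

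The *Bdnf* site 85.8 kb upstream was the other one in both skin lists. It had 17.1 and 8.38 in brain, 16.1 in thymocyte replicate 2, no peak in thymocyte replicate 1, and 6.92 and 5.12 in skin, on a BUR with 18.6 in vitro. A site 108 kb downstream of the start, off BURs, was shared by brain (7.29 and 8.38) and thymocytes (8.55 and 7.42). The 8 other sites in both brain lists were in brain alone, and the strongest of them, 137 kb downstream, had 10.4 and 12.6. The site nearest to the start, 3.27 kb upstream, was called in brain replicate 2 alone at 4.86. Inside the gene, 1 site in both brain lists lay in an intron, 38.9 kb from the start, at 6.14 and 5.84.

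*Homer1* (chr13:94073712-94174917, plus strand) had 21 sites, 12 of them in both brain lists, and no skin peak. The strongest lay in an intron of *Homer1*, 84.4 kb from the start (chr13:94158144-94158725), with 15.9 and 14.9 in brain and 13.4 and 13.5 in thymocytes, on a BUR with 11.1 in vitro. Both brain values were above both thymocyte values. A site 35.1 kb upstream, off BURs, had 11.2 and 10.5 in brain and 7.11 and 5.72 in thymocytes. The site nearest to the start, 2.35 kb into the gene on a BUR with 13.0 in vitro, was called in brain replicate 1 alone at 9.59. Within the gene itself brain had 8 and 9 peaks. Thymocyte replicate 2 alone had a peak 13.4 kb upstream at 9.36, with a BUR and the ATTA repeat. The number of BURs bound in *Homer1* was 12 and 8 in brain, the widest gap between brain replicates in any member, and 2 and 3 in thymocytes.

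**Figure D4:**
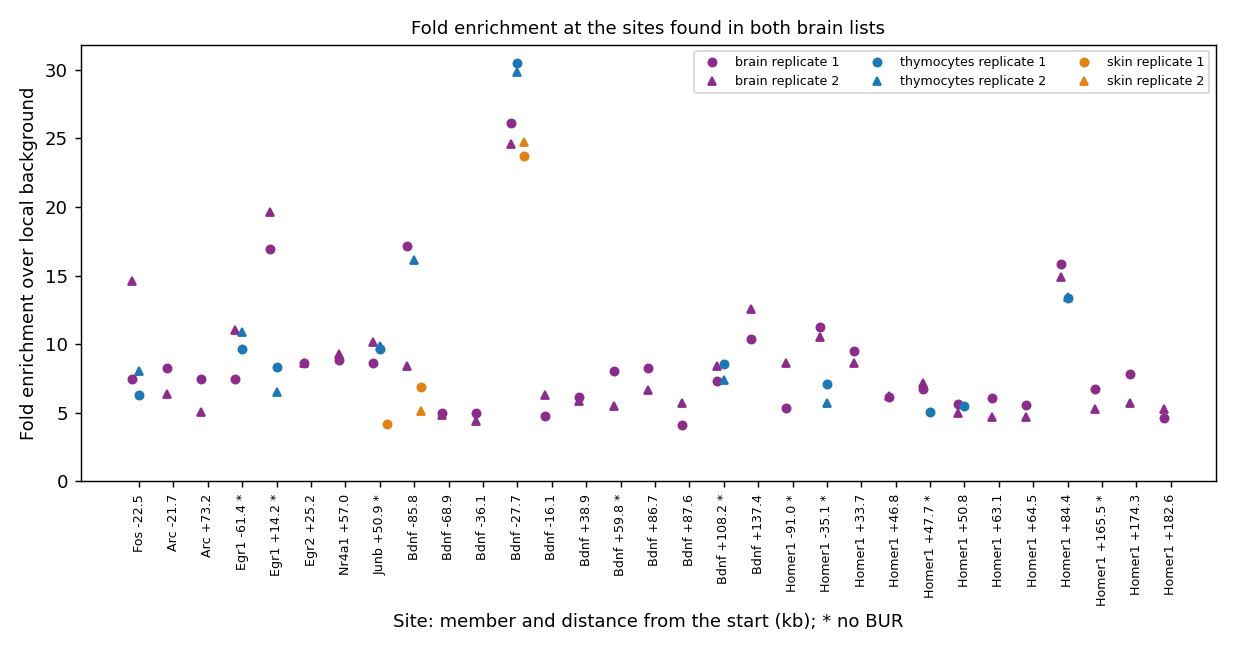
Fold enrichment over the local background (vertical axis) at each of the 31 sites found in both brain lists, ordered by member and by distance from the start (kb). Colours are tissues, circles replicate 1 and triangles replicate 2, and an asterisk marks a site on no BUR. Most sites have brain points alone, between 4 and 13, while the *Bdnf* site 27.7 kb upstream has points of all 6 lists between 23.7 and 30.5.

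Most starts of the members had standard SATB1 peaks. None had a urea SATB1 peak, which for brain is close to the low share over all genes. No urea SATB1 peak of any tissue lay within 1 kb of the start of a member (0 of 10 for brain, against 5.37% of all genes), and 3 of 10 had a peak of each brain list within 20 kb, against 46.4%. Standard ChIP-seq in thymocytes had a SATB1 peak within 1 kb of the start in both replicates at 7 of 10 members (*Fos*, *Fosb*, *Arc*, *Egr1*, *Nr4a1*, *Junb* and *Homer1*), against 38.2% of all genes. In 6 of these, all but *Fosb*, a peak covered the start itself in both lists. The fold enrichment of the covering peak was 6.83 and 6.04 at *Fos*, 9.23 and 9.24 at *Arc*, 6.18 and 3.67 at *Egr1*, 10.2 and 9.29 at *Nr4a1*, 6.51 and 6.22 at *Junb*, and 11.2 and 6.5 at *Homer1*. The values of replicate 2 were the lower except at *Arc*. At *Fosb* the nearest peaks lay 74 bp and 292 bp upstream, at 4.5 and 5.72. The paper reports that standard ChIP-seq also gave some peaks in thymocytes lacking SATB1, mainly in gene-rich open chromatin. It concludes that most standard peaks depend on SATB1. The peaks at the member starts were not compared with the knockout samples here.

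*Npas4* had a standard SATB1 peak 619 bp into the gene in replicate 1, at 17.2, the highest value of any peak at a member start, while replicate 2 had none closer than 12.0 kb. At *Egr2* the nearest standard peaks were 1.10 kb and 1.58 kb from the start. *Bdnf* stood at the other end, with no standard SATB1 peak in its window and the nearest 216 kb from its start in both lists. Over the 10 windows the standard lists had 141 and 98 peaks, and among the 53 urea sites 2 overlapped a standard peak, those of *Nr4a1* and of *Homer1* 50.8 kb from its start. The standard replicates differed in antibody and in a time given in their titles (15 s and 150 s), which cannot be told apart.

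CTCF, which binds insulators and domain borders, had a peak within 1 kb of the start in both thymocytes and skin at 1 of 10 members, *Egr2*, against 8.07% of all genes. Both peaks lay inside *Egr2*, 517 bp and 528 bp from the start, at 11.5 and 6.53. In skin alone, CTCF peaks lay 329 bp from the start of *Fosb* at 5.76, 293 bp into *Egr1* at 4.90, with a further peak upstream of it at 5.93, and 218 bp from that of *Homer1* at 3.61. The thymocyte CTCF peak nearest to the *Egr1* start was 1.04 kb away. The windows held 71 CTCF peaks in thymocytes and 98 in skin, from 0 at *Bdnf* to 13 at *Fosb* and *Junb* in thymocytes, and from 2 at *Homer1* to 23 at *Fosb* in skin. CTCF had 1 list per tissue here, so these values have no replicate. A further wild-type thymocyte CTCF sample of the study was not used.

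**Figure D5:**
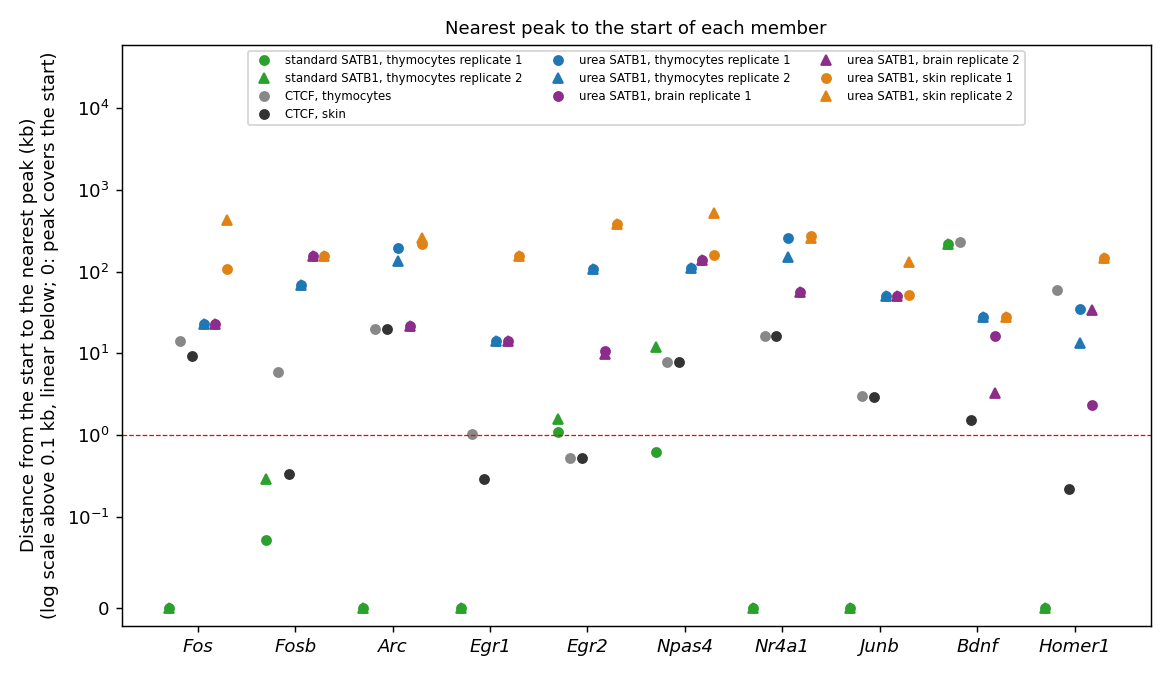
Distance from the start of each member to the nearest peak (kb, logarithmic above 0.1 kb and linear below) for standard SATB1, CTCF and urea SATB1 lists, with circles for replicate 1 and triangles for replicate 2. The dashed line is 1 kb. Standard SATB1 peaks sit at 0 for 6 members, and every urea SATB1 point lies above the line.

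The starts were also GC-rich. From 250 bases before to 50 after the start, the AT content of the members ran from 27.7% at *Nr4a1* to 42.7% at *Bdnf*, with a median of 32.7% against 45% over all genes. The 150 bases before the start of *Fos*, where a standard peak covers the start in both lists, are shown for contrast with its BUR, on the forward strand, which is that of the gene, with a TATAAA match in capitals.
Fos, chr12:86814690-86814839: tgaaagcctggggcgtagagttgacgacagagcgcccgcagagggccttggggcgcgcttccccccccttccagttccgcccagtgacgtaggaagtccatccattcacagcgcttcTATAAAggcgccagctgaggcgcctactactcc

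In the 300-base windows at the starts, TATAAA (either strand) matched at *Fos*, from position -33 to -28, and at *Junb*, from -30 to -25, and in 13.4% of all genes. The CArG box, the element of serum response factor, matched at *Egr1* alone, with 2 copies from -105 to -96 and from -83 to -74, and in 1.47% of all genes. Neither the full cAMP response element TGACGTCA (2.32% of all genes) nor the EGR element GCGTGGGCG (0.782%), searched on both strands, matched in the window of any member. These letters are matches or their absence in this window and no measure of binding.

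Of 30 other activity-regulated genes, such as *Egr3*, *Nr4a2* and *Dusp1*, 14 had more bound BURs in both brain lists than in any thymocyte or skin list, against 57.7% of all genes. Brain bound 26.3% of the BURs in their windows, thymocytes 11.3% and skin 4.51% (means of 2 lists). Each of the 30 had a BUR in its window. The largest numbers of BURs bound in both brain lists were 9 of 19 at *Rgs2*, a regulator of G-protein signalling, 8 of 24 at *Ptgs2*, which encodes cyclooxygenase-2, and 6 of 19 at *Klf6*, a zinc finger factor. In these 3 windows no other protein-coding gene was present. A standard SATB1 peak lay within 1 kb of the start in both replicates at 15 of the 30, against 38.2% of all genes.

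Among 15 regulators of these genes, such as *Creb1*, *Srf* and *Mef2c*, 7 had more bound BURs in brain by the same rule. The share over all genes was 57.7%. A standard SATB1 peak lay at the start in both replicates at 14 of the 15, again against 38.2% of all genes. For comparison, 14 of 20 cortical interneuron genes and 6 of 14 T-cell identity transcription factors had more bound BURs in brain. The same 57.7% of all genes stands beside these counts. The interneuron and T-cell lists had medians of 5 and 3.5 BURs bound in brain per window. The median was 1 for the immediate early genes and 2.5 over all genes. In the same order, the windows held medians of 16.5, 12.5, 5 and 11 BURs. Brain bound 37.8%, 34.1%, 29.7% and 31.1% of the BURs in these windows, so the shares were closer than the medians. These shares are pooled over all BURs of a list. Among the interneuron genes, *Erbb4* alone held 297 BURs, with 142 and 129 bound in the brain lists, and so weighs heavily in the share. The interneuron genes had a standard SATB1 peak at the start in thymocytes in 1 of 20 cases, and the T-cell factors in 10 of 14, beside the same 38.2%. These lists overlap no member, and the counts are descriptions with no test.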

How the data were processed

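SATB1 urea ChIP-seq in brain, thymocytes and skin (2 samples each), standard SATB1 ChIP-seq in thymocytes (2), urea ChIP-seq of CTCF in thymocytes (1) and skin (1) and the BUR reference map (1) were used, 1 peak list per sample. Groups and replicate numbers came from the sample labels, and these do not say which animals each sample came from. The study's reporting checklist speaks of biological replicates from different animals without naming samples, while both brain titles and both thymocyte urea titles carry 1 experiment number each, so the p-values measure the spread between lists, which may be technical. The study's other samples are not analysed here. The immediate early genes, the other gene lists and the tests were chosen with earlier results of these data known.

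The authors mapped 50-base reads to mm9 with Bowtie2 2.3.1, kept unique matches and ran MACS2 2.2.7 on every sample, with a q-value limit of 0.01. Use of an input library is not given in the sources used here. The deposited lists give each peak's position, its fold enrichment (a ratio to local background within that sample, not scaled between samples), the −log10 p-value and the −log10 q-value computed by the authors' peak caller, and its summit. A further column of the deposited lists, the display score, was not used. The lists hold no read counts, and read totals per sample are not given in the sources used here, and counting error therefore has no interval here. Repeats that do not map uniquely are missed by construction.

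Python 3.11.15 was used for overlaps (at least 1 bp) and tests, with numpy 2.4.6, pandas 2.3.3, scipy 1.17.1, pysam 0.24.0 and, for plots, matplotlib 3.10.9. Coordinates are 1-based mm9 (NCBIM37), with genes from GENCODE vM1, and the start of a gene is the 5′ end of its record. Other starts or transcript forms of *Bdnf* and *Homer1* were therefore not treated separately. Tests were exact permutation tests over lists at a threshold of 0.05, checked on simulated data. All members were named. In each window the named peaks were the strongest brain site found in both brain lists, the urea site nearest to the start, sites in both lists of all 3 tissues, and standard SATB1 or CTCF peaks within 1 kb of the start, and others were added after their values were seen. The alternatives tried were peaks with −log10 q of 5 or more, flanks of 20, 50 and 200 kb or none, lists of equal size, summits, removal of 57 regions with a peak in all 11 lists, removal of *Bdnf* and *Homer1*, each replicate left out, and permutation within replicate numbers.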

Additional observations from a re-analysis of the deposited data

How the results depend on the processing

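The order skin, thymocytes, brain in bound BUR share and peak number kept its direction and side of the threshold in 15 of 16 alternatives. The exception was equal list sizes, which left between 1 and 3 bound BURs per list, too few to decide about an order. For the share, the peaks and the number per 10000, differences are brain minus thymocytes. Their p-values are for the order of all 3 tissues by the Jonckheere-Terpstra statistic, and none tests brain against thymocytes alone. With lists of equal size, brain minus thymocytes was -0.581 percentage points of the BURs and -0.5 peaks (p = 0.433 for each, exact permutation), -0.461 per 10000 peaks (p = 0.867), and -0.291 percentage points for brain against the other tissues together (p = 1), and 0 members had more bound BURs in brain, against 6.15% of all genes. These lists hold fewer brain peaks by construction. The number per 10000 peaks (0.371 higher in brain than in thymocytes, exact permutation p = 0.0667 for the order of the 3 tissues) also depended on the flank. It was 0.631 with 20 kb and 0.424 in the gene alone, each with exact permutation p = 0.0222, 0.242 with 200 kb (p = 0.178), where skin (9.81 and 8.30) was above brain (7.29 and 7.60), and -0.381 without *Bdnf* and *Homer1* (p = 0.844). The count of 5 members with more bound BURs in brain was 3 with 20 kb flanks (31.1% of all genes), 2 in the gene alone (16.9%), 6 with 200 kb (72.4%) and 3 of 8 without *Bdnf* and *Homer1* (57.7%). Within 3 kb of the start, 3 members had CTCF peaks in both tissues in place of 1 (13.4% of all genes), and 8 had standard peaks in both replicates in place of 7 (41.6%). Leaving out each urea list in turn gave differences of 20.9 to 26.7 percentage points, 26 to 27 peaks, 0.142 to 0.600 per 10000 and, against the other tissues together, 22.7 to 28.5 percentage points. Without standard replicate 1 the count of members was 7 (38.5% of all genes) and without replicate 2 it was 8 (50.5%). Replicate numbers share nothing but the number. With the replicate block, p was 0.0278 for the share (23.8 percentage points) and for the peaks (26.5 peaks), 0.0556 per 10000 (0.371), and 0.111 for brain against the others (25.6 percentage points), which changed no call. Peaks missing from a list may lie below its threshold, and no read total per sample was at hand.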

Other observations

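Thymocyte peaks in the windows of the immediate early genes lay less often on BURs than in their lists as a whole, a description with no test. In the windows, 4 of 13 peaks of replicate 1 (30.8%) and 6 of 13 of replicate 2 (46.2%) overlapped a BUR, against 75.8% and 77.6% of all peaks of these lists. Brain peaks of the windows were on BURs in 71.8% and 60.0%, against 73.0% and 72.8%. The 9 sites in both brain lists that lay on no BUR had a median AT content of 62.1%, and the 22 on BURs 68.0%. The off-BUR sites were not weaker, with a median brain fold enrichment of 7.83 against 6.54. They were 2 at *Egr1*, 1 at *Junb*, 2 at *Bdnf* and 4 at *Homer1*, and 6 of the 9 were also in a thymocyte list.

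The strength of a BUR in vitro was compared between bound and unbound BURs of these windows, with no test. The median in vitro fold enrichment was 7 in the 22 BURs bound in both brain lists, 11.6 in the 7 bound in 1, and 6.47 in the 57 bound in neither. Over the whole map these medians were 7.21, 5.47 and 5.35. The BUR with 11.1 in vitro 1.08 kb from the start of *Fosb* was bound in no tissue, and the *Egr2* BUR with 15.3, 18.4 kb from the start, was bound in brain replicate 1 alone.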
